A study of Mus musculus with 7 samples.

Results

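The 6 genes described here are *Trp53*, which encodes p53, its target and cell cycle inhibitor *Cdkn1a* (p21), its negative regulator *Mdm2*, and the growth arrest genes *Gadd45a*, *Gadd45g* and *Btg2*. They were chosen by name, with earlier results of these data known, out of 21951 protein-coding genes of the annotation. For each gene, every ChIP-seq peak that overlapped the gene body or lay within 10 kb of any of its annotated transcription start sites (TSSs) was taken from 6 peak lists, which gave 51 of 527912 peaks. These 51 peaks comprised 16 of the circadian activator BMAL1, 7 of the circadian repressor REV-ERBα and 28 of RNA polymerase 2 (RNAP2). The lists came from gastrocnemius, a hindlimb muscle, of wild type male C57BL/6J mice aged 5 months that lived in equal periods of light and dark. BMAL1 and RNAP2 were precipitated at Zeitgeber time (ZT) 4, that is 4 h after lights on, and REV-ERBα at ZT 8, with 2 replicates of each. All mice carried the same genotype and no animal was treated, so the lists describe occupancy at a single time for each protein and hold no comparison of conditions. A REV-ERBα peak and an RNAP2 peak at the same gene were thus measured at different times of day, and the protein and the time of day cannot be told apart.

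p53 is a transcription factor that is held at low levels by MDM2, which marks it for degradation, and that is stabilized by DNA damage and other stresses. It then activates genes that stop the cell cycle or promote repair, among them *Cdkn1a*, the GADD45 family and *Btg2*, and it activates *Mdm2* itself, which closes a feedback loop. In muscle, where most nuclei are postmitotic, several of these genes are also known to respond to denervation, fasting or glucocorticoids. BMAL1 acts with CLOCK on E-boxes, and REV-ERBα binds elements built on the half-site AGGTCA and recruits corepressors.

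The peak caller gave each summit a −log10 p, a −log10 q and the fold by which signal exceeded input, and a gene without a listed peak has no value. Positions of summits and motifs are given in bp from the most upstream TSS of each gene, on its strand. The lists keep weak calls, and only 36 to 10997 peaks per list had q of 0.05 or lower. The lists were of unequal length, from 28881 peaks (REV-ERBα replicate 1) to 177669 peaks (BMAL1 replicate 2). BMAL1 replicate 2 stood apart from its partner, with 177669 against 34737 peaks, a median −log10 p of 1.87 against 2.48, and 36 against 92 peaks at q of 0.05 or lower. RNAP2 regions at q of 0.05 or lower in both replicates lay in the windows of 7 of 7 genes that mark skeletal muscle and of 1 of 13 that mark other cell types. That marker was *Col1a1* of fibroblasts, with the RNAP2 summit 55 bp from its own TSS.

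REV-ERBα was listed in both replicates at the same place in *Trp53*. RNAP2 was strong at *Gadd45g*, *Btg2*, *Gadd45a* and *Mdm2* and lower than at these genes at *Trp53* and *Cdkn1a*. BMAL1 peaks at the 6 genes were weak throughout. Every gene had an RNAP2 peak and a BMAL1 replicate 2 peak somewhere in its window, so presence of a peak in those long lists separated none of them.

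**Figure D1:**
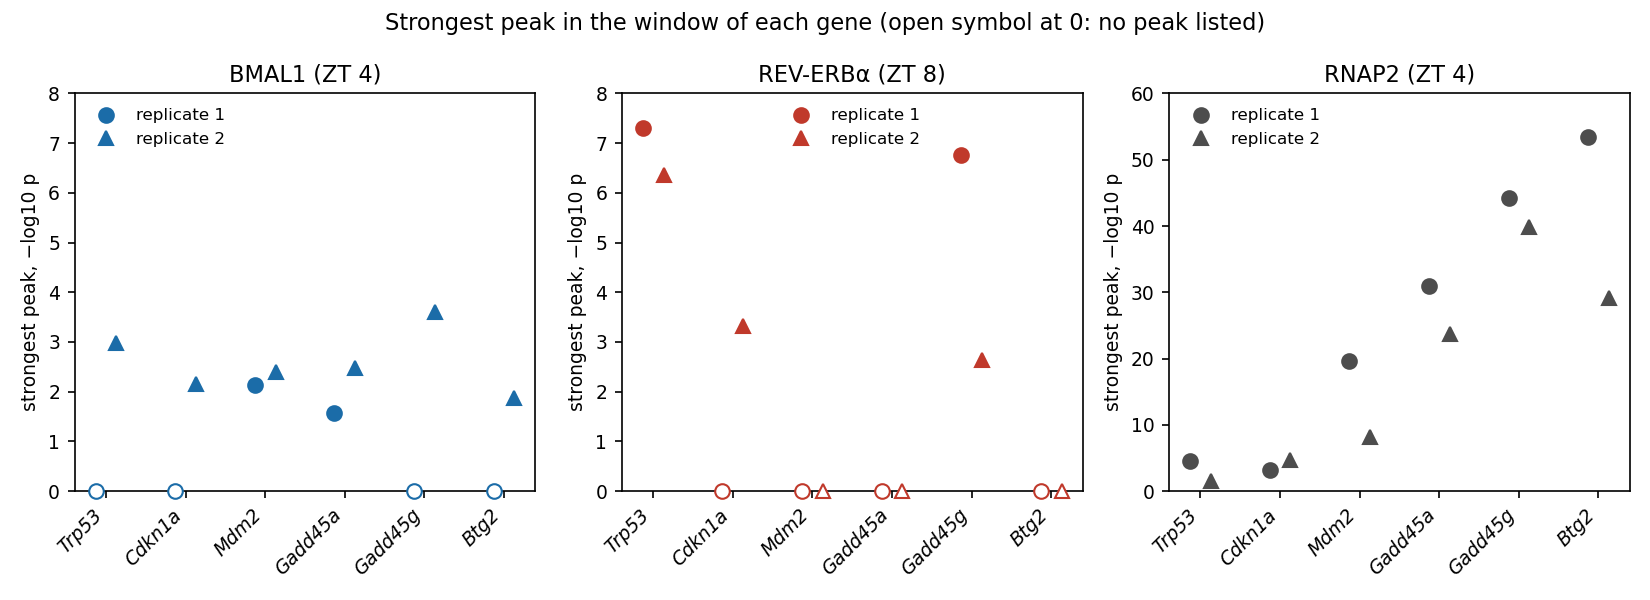
Strongest −log10 p of any peak in the window of each gene (gene body and 10 kb around each TSS) in the lists of each protein, with circles for replicate 1, triangles for replicate 2 and open symbols at 0 where no peak was listed. REV-ERBα reached 7.31 and 6.35 at *Trp53*, and RNAP2 rose from values below 5 at *Trp53* and *Cdkn1a* to values between 23.8 and 53.5 at *Gadd45a*, *Gadd45g* and *Btg2*.

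*Trp53* lies at chr11:69580359-69591873 (mm10, plus strand). Its REV-ERBα peak in replicate 1 had −log10 p of 7.31, −log10 q of 2.79 and 3.70-fold enrichment. In replicate 2 the values were 6.35, 1.92 and 3.48-fold. Both peaks lay in intron 1 and overlapped over 381 bp, with summits at +1097 and +976, 121 bp apart. Of the 1263 REV-ERBα regions listed in both replicates, 183 were stronger by the lower replicate, and 85.4% were weaker.

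*Trp53* was the 1 gene of 6 with a REV-ERBα region in both replicates, against 4.44% of all protein-coding genes. The study had already named *Trp53* for a prominent REV-ERBα peak in these data, so the share gives context only. *Trp53* kept that region when only peaks with −log10 q of at least 1.3 (q of 0.05 or lower) counted, a rule that 1 of the 6 genes and 1.37% of all genes met. The sequence around both summits is shown because it is the place that both replicates picked, with the 11 bases centred on each summit in capitals, replicate 2 first.

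Trp53 intron 1 (chr11:69581275-69581516, plus strand): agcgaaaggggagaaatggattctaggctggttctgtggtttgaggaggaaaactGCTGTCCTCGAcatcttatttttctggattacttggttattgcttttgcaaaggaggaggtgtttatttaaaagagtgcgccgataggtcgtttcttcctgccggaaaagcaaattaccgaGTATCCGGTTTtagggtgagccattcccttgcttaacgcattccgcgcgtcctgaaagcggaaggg

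Neither summit had an AGGTCA within 100 bp on either strand. The nearest one began 195 bp downstream of the replicate 1 summit, still inside that peak but outside the peak of replicate 2. Among all 1263 regions, 13.1% held AGGTCA within 100 bp of the stronger summit, against 10.7% of BMAL1 and 9.58% of RNAP2 regions. Exact direct repeats (DR2), 2 copies with 2 bases between them, lay there in 0 of the regions of any of the proteins. So strict a pattern does not describe REV-ERBα binding, and the study reported DR2 enrichment in its peaks with other motif tools. GC content within 100 bp of the summits was 54.2% and 48.8%, near the median of 49.3% over all REV-ERBα regions.

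RNAP2 at *Trp53* was not listed in the same place by both replicates. In replicate 1 a peak with −log10 p of 4.61 and 3.51-fold enrichment (−log10 q of 1.52) covered the promoter, its summit at −67. In replicate 2 the window held a single peak with −log10 p of 1.45 and 1.79-fold enrichment at −5263. The promoter peak cannot be assigned to *Trp53* alone, because *Wrap53*, which is transcribed in the opposite direction, has its TSS 37 bp from the summit. A further RNAP2 peak of replicate 1, with −log10 p of 1.66, overlapped the REV-ERBα region, and 615 bp separated the REV-ERBα peak from the promoter peak. The upstream stretch is shown to place these summits. It holds a CCAAT box (in capitals, reading ATTGG on this strand) that starts at −8.

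Trp53 promoter (chr11:69580259-69580358, plus strand): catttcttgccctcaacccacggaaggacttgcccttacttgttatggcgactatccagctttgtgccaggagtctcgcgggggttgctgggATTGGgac

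BMAL1 had 1 peak at *Trp53*, in replicate 2, with −log10 p of 2.98 and 2.59-fold enrichment at +2906 in intron 1. The nearest BMAL1 summit of replicate 1 was 77765 bp downstream of the TSS nearest to it. Over all 6 lists, the genes with the most similar set of strongest −log10 p values were *Them6*, *Map4k1* and *Mcm4*, at Euclidean distances of 0.56, 0.77 and 0.88 on the log2 scale. *Them6*, the nearest, reached −log10 p of 5.94 and 7.15 with REV-ERBα, and its RNAP2 values were 4.79 and 1.48.

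*Cdkn1a* (chr17:29090976-29100727, plus strand) has 5 annotated TSSs, and the RNAP2 region of both replicates lay not at the first but around one 2793 bp further downstream, at position 29093769. RefSeq promoters cover both of these TSSs, and counting positions from the first does not mark it as the main one. Replicate 1 had −log10 p of 3.15 (2.88-fold) with its summit at +2717, and replicate 2 had 4.73 (3.58-fold) at +2857. Each replicate had a further peak without a partner in the other, replicate 1 at +4240 and replicate 2 at +683, both with −log10 p of 2.60. The peaks overlapped over 119 bp, and the region was lost when 50% of the shorter peak had to be shared. Neither peak of the region reached q of 0.05, and 50.5% of the 10752 RNAP2 regions in both replicates were weaker, so the region was about average in strength. The sequences upstream of both TSSs are given because the RNAP2 region and the only complete match to the p53 consensus lay at different ones. Capitals mark the paired p53 half-sites upstream of the first TSS, and a GGGCGG (GC box) upstream of the second.

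Cdkn1a first TSS (chr17:29090876-29090975, plus strand): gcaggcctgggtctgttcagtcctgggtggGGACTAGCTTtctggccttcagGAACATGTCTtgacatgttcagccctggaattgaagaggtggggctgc

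Cdkn1a TSS with RNAP2 (chr17:29093669-29093768, plus strand): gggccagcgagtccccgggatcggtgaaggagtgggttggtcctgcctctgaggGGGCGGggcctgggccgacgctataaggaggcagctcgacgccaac

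The p53 consensus is a pair of 10-bp half-sites, which were searched with a spacer of up to 13 bp and no mismatch. A pair lay in the window of 1 of the 6 genes, *Cdkn1a*, with a spacer of 12 bp, and in the windows of 14.8% of all protein-coding genes. The *Cdkn1a* pair was centred at −55 from the first TSS, which lies 2793 bp upstream of the TSS with RNAP2. No peak of the 6 lists covered this pair. With no spacer and at most 1 base off the consensus, 20-bp sites lay in the windows of 2 of the 6 genes and of 15% of all genes, with 1 site at *Cdkn1a* and 4 at *Mdm2*, none under a peak. The site of *Cdkn1a*, centred at −39, shares the half-site GAACATGTCT with the spaced pair, so these matches overlap. It and the *Mdm2* site nearest to a TSS, centred at −921, are shown on the strand of the gene. The base that departs from the consensus is in lower case.

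Cdkn1a (chr17:29090928-29090947, plus strand): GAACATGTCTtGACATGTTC

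Mdm2 (chr10:117711670-117711689, minus strand): GGGCAAtTCCGGGCAAGTCC

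REV-ERBα peaks at *Cdkn1a* came from replicate 2 alone. They had −log10 p of 3.18 in intron 1, of 3.32 downstream of the gene at +11955 and of 1.61 at +16778, where *Rab44* has the nearer TSS, and −log10 q was 0 at all of them. The nearest summit of replicate 1 was 245323 bp from a TSS of the gene. The peaks downstream of the gene are shown because they fell in the same tandem repeat although their summits were 4823 bp apart. The 9-base word ATCACTGAG occurs 5 times in each 121-base stretch, and capitals mark the 11 bases at the summit.

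Cdkn1a +11955 (chr17:29102871-29102991, plus strand): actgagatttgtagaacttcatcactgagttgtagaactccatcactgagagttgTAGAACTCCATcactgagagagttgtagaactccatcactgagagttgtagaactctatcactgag

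Cdkn1a +16778 (chr17:29107694-29107814, plus strand): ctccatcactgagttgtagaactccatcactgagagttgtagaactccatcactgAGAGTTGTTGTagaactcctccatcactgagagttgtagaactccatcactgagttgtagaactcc

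Reads that mapped to several places had been removed, and the part of the repeat in these calls was not tested. BMAL1 had 1 peak at *Cdkn1a*, in replicate 2 and downstream of the gene, with −log10 p of 2.15. The genes most similar over the 6 lists were *Samhd1*, *Tdrd12* and *Pcdhb5*, at distances of 0.19, 0.24 and 0.25 on the log2 scale. Such weak values recur across genes, and all 3 had 3.18 for REV-ERBα replicate 2, beside 3.32 for *Cdkn1a*.

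*Mdm2* (chr10:117688875-117710758, minus strand) had RNAP2 at its first TSS in both replicates. Replicate 1 reached −log10 p of 19.6 with 9.59-fold enrichment, and replicate 2 reached 8.12 with 5.01-fold. The summits lay at −118 and +7, 125 bp apart, and 86.4% of RNAP2 regions were weaker. A weaker peak of replicate 1, with −log10 p of 3.62 and no partner in replicate 2, lay 3 bp from a second TSS in the first part of the gene, the side on which the p53-responsive start of *Mdm2* is known to lie. No REV-ERBα peak was listed within the window in either replicate, the nearest summits being at −96461 and −28339. BMAL1 had 1 peak in replicate 1, with −log10 p of 2.13, and 4 in replicate 2, of 1.40 to 2.40, and 365 bp separated the former from the nearest of the latter.

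Mdm2 promoter (chr10:117710759-117710858, minus strand): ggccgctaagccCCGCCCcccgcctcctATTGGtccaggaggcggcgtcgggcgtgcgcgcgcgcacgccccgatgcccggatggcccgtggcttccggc

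In this stretch capitals mark a GC box (reading CCGCCC) that starts at −88 and a CCAAT box (reading ATTGG) that starts at −72.

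*Gadd45a* and *Gadd45g* encode small stress-induced proteins that bind cell cycle and MAP kinase regulators, and *Gadd45a* is known to rise in denervated or fasted muscle. Both had strong RNAP2 close to the start of the gene. At *Gadd45a* (chr6:67035096-67037457, minus strand) −log10 p was 30.9 in replicate 1 and 23.8 in replicate 2, with 13.1-fold and 9.75-fold enrichment and summits at +87 and +103, and 98.6% of RNAP2 regions were weaker. At *Gadd45g* (chr13:51846678-51848468, plus strand) −log10 p was 44.3 and 39.8, with 15.5-fold and 13.5-fold enrichment and summits at +28 and +8, and 99.6% of regions were weaker.

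The genes differed in how far RNAP2 peaks extended. Peaks covered 12.9% and 15.6% of the 2362 bp of *Gadd45a* in replicates 1 and 2, against 75.5% and 100% of the 1791 bp of *Gadd45g*. In replicate 2 a single *Gadd45g* peak of 3094 bp ran beyond the end of the gene. For the other genes, coverage of the gene body by RNAP2 peaks was between 0 and 6.9%. The upstream stretches differ too. *Gadd45g* has a TATA box (TATAAA) that starts at −30 and a CCAAT box at −81, whereas *Gadd45a* shows a CCAAT box at −36 and no TATAAA. Anywhere and on either strand, TATAAA lay in 13.6% of 32851 RefSeq promoters of 300 bases. That share is not limited to the position seen at *Gadd45g*.

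Gadd45g promoter (chr13:51846578-51846677, plus strand): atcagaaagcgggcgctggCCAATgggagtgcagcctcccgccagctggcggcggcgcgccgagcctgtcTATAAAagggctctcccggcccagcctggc

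Gadd45a promoter (chr6:67037458-67037557, minus strand): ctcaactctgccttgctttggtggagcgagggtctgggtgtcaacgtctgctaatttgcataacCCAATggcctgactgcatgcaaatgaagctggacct

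REV-ERBα was listed at *Gadd45g* in each replicate but not at the same place. The replicate 1 peak had −log10 p of 6.77, −log10 q of 2.29 and 3.80-fold enrichment at +1076, in a coding exon. The replicate 2 peak had −log10 p of 2.64, −log10 q of 0 and 2.32-fold enrichment at +2297, beyond the end of the gene. They were 594 bp apart, with 1221 bp between the summits, so *Gadd45g* did not count as having a region in both replicates. Both overlapped RNAP2 peaks of both replicates, whose part in them was not tested. Counting a peak in each list whether or not they overlapped, 2 of the 6 genes (*Trp53* and *Gadd45g*) qualified, against 22.9% of all genes. The stretches under the summits hold no AGGTCA within 100 bp and are shown because the replicates named different places, with 11 bases at each summit in capitals.

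Gadd45g, replicate 1 (chr13:51847694-51847814, plus strand): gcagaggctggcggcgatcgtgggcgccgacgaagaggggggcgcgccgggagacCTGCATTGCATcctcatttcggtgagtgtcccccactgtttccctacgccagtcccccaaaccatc

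Gadd45g, replicate 2 (chr13:51848915-51849035, plus strand): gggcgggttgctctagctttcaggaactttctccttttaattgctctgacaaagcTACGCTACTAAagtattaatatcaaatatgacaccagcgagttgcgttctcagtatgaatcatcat

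*Gadd45a* had no REV-ERBα peak in its window in either replicate, with the nearest summits 13890 and 47631 bp downstream of the TSS nearest to them. It was the 1 gene of 6 with a BMAL1 region in both replicates, against 6.81% of all genes, but that region was among the weakest calls. Its −log10 p was 1.58 in replicate 1 and 1.87 in replicate 2, with −log10 q of 0 in both. The peaks overlapped over 74 bp, their summits at −2637 and −3108 lay 471 bp apart, and in replicate 2 the same −log10 p was shared by 29.4% of all peaks in the list. No BMAL1 region was left at the 6 genes when −log10 p had to be at least 3 or 50% of the shorter peak had to be shared. At *Gadd45g*, BMAL1 was listed in replicate 2 only, at +2715 with −log10 p of 1.87 and at +6904 with 3.60, the strongest BMAL1 value at any of the 6 genes.

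**Figure D2:**
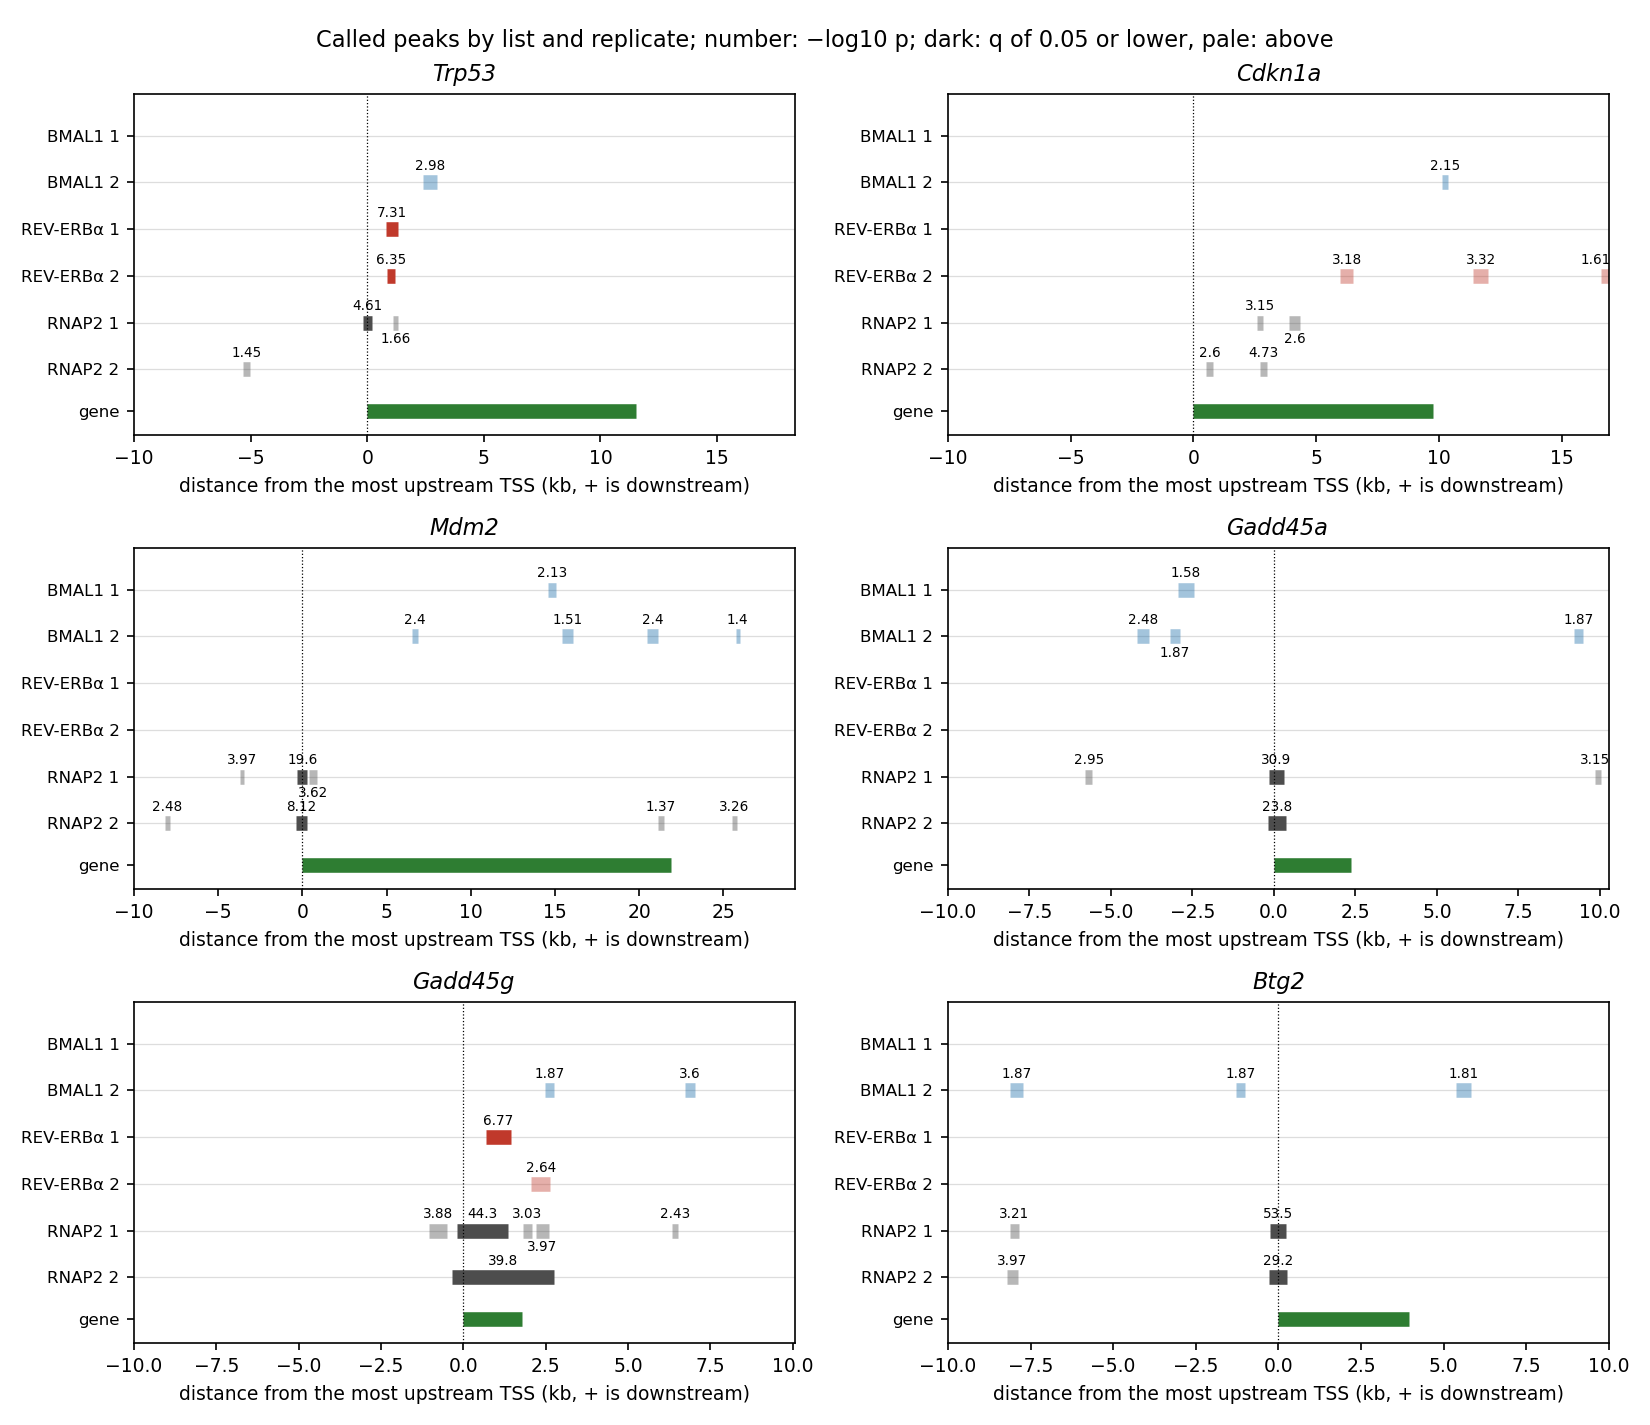
Position of every listed peak at the 6 genes as distance in kb from the most upstream TSS on the strand of the gene, 1 line per list, with −log10 p beside each bar, dark bars for q of 0.05 or lower and pale bars for higher q. The gene body is the bar at the bottom. The REV-ERBα peaks of *Trp53* stack on each other, those of *Gadd45g* lie side by side, and RNAP2 peaks cover 75.5% and 100% of *Gadd45g*, while the dark RNAP2 bars of *Mdm2*, *Gadd45a* and *Btg2* lie at the start of the gene.

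*Btg2* (chr1:134075170-134079120, minus strand), an antiproliferative gene of the BTG/TOB family that is induced early by p53 and by growth signals, had the highest RNAP2 value of the 6 genes in replicate 1. There −log10 p was 53.5 with 17.5-fold enrichment, against 29.2 with 10.4-fold in replicate 2. The summits lay 14 bp apart at +30 and +16, and 99.1% of RNAP2 regions were weaker by the lower replicate. A second RNAP2 region was listed upstream of *Btg2* in both replicates, with −log10 p of 3.21 and 3.97, summits at −7999 and −8008 and no q of 0.05 or lower. BMAL1 replicate 2 had a peak there as well, at −7876, with −log10 p of 1.87 and −log10 q of 0.

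Btg2 promoter (chr1:134079121-134079220, minus strand): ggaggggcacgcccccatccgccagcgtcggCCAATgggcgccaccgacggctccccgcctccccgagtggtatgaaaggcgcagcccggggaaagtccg

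The stretch upstream of *Btg2* is shown for its CCAAT box at −69, a motif that 37.4% of RefSeq promoters held. No REV-ERBα peak was listed at *Btg2*, where the nearest summits were 17855 and 41983 bp downstream.

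Across the 6 genes, 5 had an RNAP2 region in both replicates, against 41.1% of all genes, and *Trp53* was the exception. At q of 0.05 or lower in both replicates, 4 of the 6 (*Mdm2*, *Gadd45a*, *Gadd45g* and *Btg2*) had one, against 18.9% of all genes. Ordered by the lower replicate, −log10 p ranged from 1.45 to 4.61 at *Trp53*, from 3.15 to 4.73 at *Cdkn1a*, from 8.12 to 19.6 at *Mdm2*, from 23.8 to 30.9 at *Gadd45a*, from 29.2 to 53.5 at *Btg2* and from 39.8 to 44.3 at *Gadd45g*. Neighbours overlapped for *Trp53* and *Cdkn1a*, for *Gadd45a* and *Btg2*, and for *Btg2* and *Gadd45g*. *Mdm2* overlapped neither neighbour. These ranges join lists of different scale. Compared within each list, *Btg2* was above *Gadd45a* in both replicates, while the order of the other overlapping neighbours changed between replicates. Each value is the highest summit in a window, and windows ran from 20001 bp for *Btg2* to 39239 bp for *Mdm2*. In bulk muscle, fewer nuclei with RNAP2 at a gene and less RNAP2 per nucleus cannot be told apart.

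**Figure D3:**
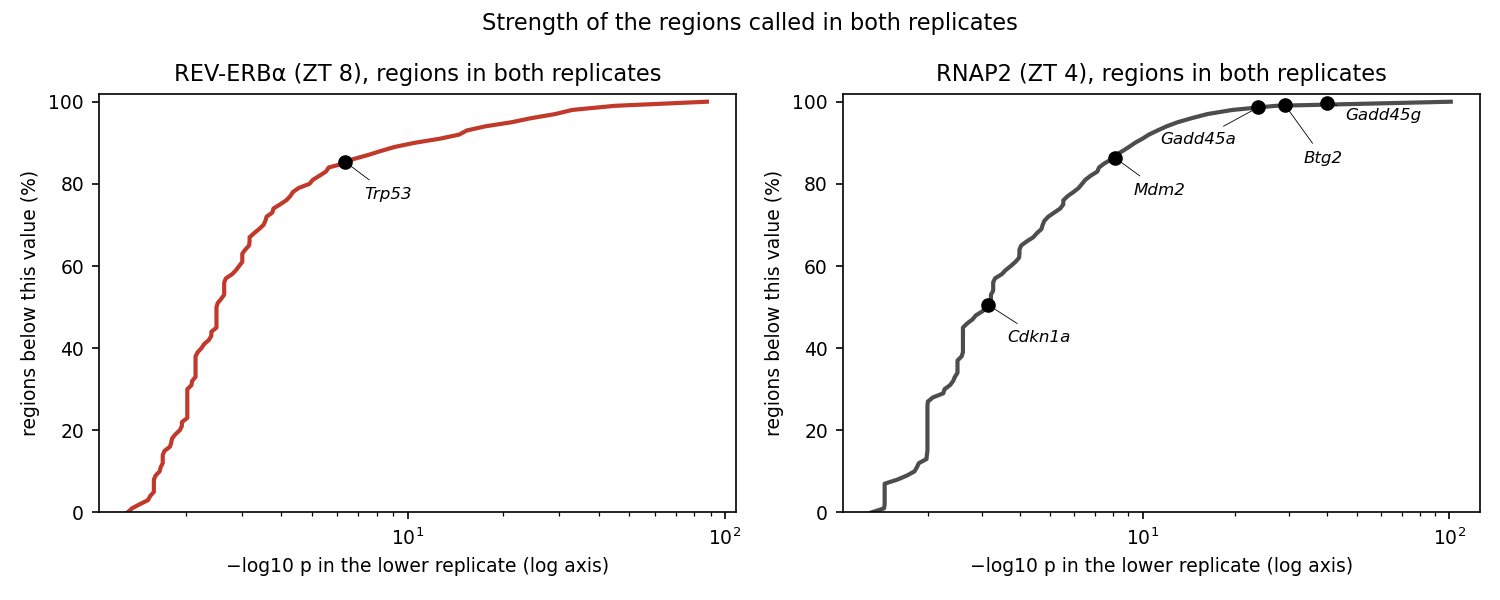
Share of the regions listed in both replicates (vertical axis, %) that had a lower −log10 p, taken in the weaker replicate, than the value on the logarithmic horizontal axis, drawn from 1263 REV-ERBα and 10752 RNAP2 regions. Points mark the 6 genes where they had such a region. *Trp53* sits at 85.4% on the REV-ERBα curve. On the RNAP2 curve *Cdkn1a* sits at 50.5%, *Mdm2* at 86.4% and the other genes at 98.6% or above.

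Counts of single lists put these figures in context. RNAP2 peaks were listed at 6 of the 6 genes in replicate 1 and at 6 in replicate 2, against 76.9% and 86.4% of all genes. REV-ERBα peaks were listed at 2 genes in replicate 1 (*Trp53* and *Gadd45g*) and at 3 in replicate 2 (those and *Cdkn1a*), against 38.7% and 40.1% of all genes. BMAL1 peaks were listed at 2 genes in replicate 1 (*Mdm2* and *Gadd45a*), against 38.2%, and at 6 in replicate 2, against 84.3%. In a group of 6, 1 gene more or less would move a share by more than its distance from the background for BMAL1 and REV-ERBα.

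At q of 0.05 or lower in both replicates, 0 of the 6 genes had a BMAL1 region, against 0.109% of all genes. Every one of the 16 BMAL1 peaks had −log10 q of 0, and −log10 p ranged from 1.40 to 3.60. None of the 16 had its summit within 1000 bp of a TSS of its gene, against 2 of 7 REV-ERBα and 14 of 28 RNAP2 peaks. Over all peaks in the windows of protein-coding genes, the shares within 1000 bp of such a TSS were 7.57% for BMAL1, 10.9% for REV-ERBα and 18.2% for RNAP2. The E-box CACGTG lay within 100 bp of the summit of 2 of the 16 BMAL1 peaks, and of 2.55% of the 2742 BMAL1 regions in both replicates. Those 2 peaks, at *Mdm2* and *Gadd45g*, were weak calls of replicate 2, with −log10 p of 1.40 and 1.87. Here and below, motif counts at the 6 genes are of peaks in single lists, so the shares of regions are not like for like. CACGTG also lay 80 bp from the RNAP2 summit at the *Trp53* promoter, where no BMAL1 peak was listed. Of the 7 REV-ERBα peaks at the 6 genes, 0 held AGGTCA or an E-box (CACGTG or CAGCTG) within 100 bp of the summit, against 13.1%, 3.4% and 12.7% of REV-ERBα regions in both replicates. A p53 half-site lay within 100 bp of the summit of 0 of the 7 REV-ERBα peaks, against 4.2% of regions, of 2 of the 16 BMAL1 peaks, against 5.14%, and of 4 of the 28 RNAP2 peaks, against 4.83%. Those 4 lay at the promoters of *Trp53*, *Mdm2* and *Gadd45a*. At *Gadd45a* the same half-site was counted once in each replicate, whereas the shares count each region once. The extended monomer element of REV-ERBα was found at 0 of the 7 REV-ERBα peaks, against 0.158% of regions. As searched, it lay in 0.511% of BMAL1 and 0.158% of RNAP2 regions, and AGGTCA in 10.7% and 9.58%. Those shares lie at or near the ones of REV-ERBα regions, so the absence of these patterns at 7 peaks decides nothing. A glucocorticoid response element, sought only as an exact palindrome, was also found at 0 of the 7. It lay in 0 of the regions of any of the proteins, so its absence here decides nothing. With other motif tools, the study reported that such elements are enriched in muscle REV-ERBα peaks.

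Shared sites of the clock proteins, with peaks in 3 or more of their 4 lists, were found at 0 of the 6 genes, against 1.62% of all genes. Nor did REV-ERBα and RNAP2 regions of both replicates meet in 1 window. Of the 5 genes with an RNAP2 region, 0 had a REV-ERBα region in both replicates, against 8.50% of the 9027 genes with an RNAP2 region. With 5 genes, a share of that size gives less than 1 gene. All lists were called against input DNA, and overlaps between lists of different proteins are given as positions only.

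A list of 70 further genes of the p53 pathway and of cell cycle arrest set the 6 genes in a wider group. RNAP2 regions in both replicates lay in the windows of 38 of the 70 (54.3%, against 41.1% of all genes), for 35 of them at a summit whose nearest TSS was the gene's own. At q of 0.05 or lower in both replicates there were 24 (34.3%, against 18.9%). The median of the strongest RNAP2 −log10 p was 6.29 in replicate 1 and 3.72 in replicate 2 over the 70 genes, against 3.97 and 2.95 over all genes. Neither the 24 genes nor these medians were limited to summits nearest to the gene's own TSS. At *Bax*, for example, the strongest RNAP2 region (51.0 and 40.8) lay at the TSS of *Ftl1*. At *Ccnd3* it (16.9 and 14.0) lay at that of *Taf8*.

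The families of the growth arrest genes were uneven. *Gadd45b*, the third GADD45 gene, had −log10 p of 67.6 and 33.7 at its own TSS, so the whole family was strongly occupied. In the BTG/TOB family, *Tob1* had 104.3 and 97.9, *Btg1* 57.3 and 13.4 and *Tob2* 44.7 and 15.5, while *Btg3* had 3.97 and 1.71 and no region in both replicates. Among the CIP/KIP inhibitors, *Cdkn1b* (p27) had 11.2 and 10.1, above *Cdkn1a* in both replicates, and *Cdkn1c* had 10.2 in replicate 1 and no peak in replicate 2. The p53 relatives *Trp63* and *Trp73* had no RNAP2 region in both replicates.

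**Figure D4:**
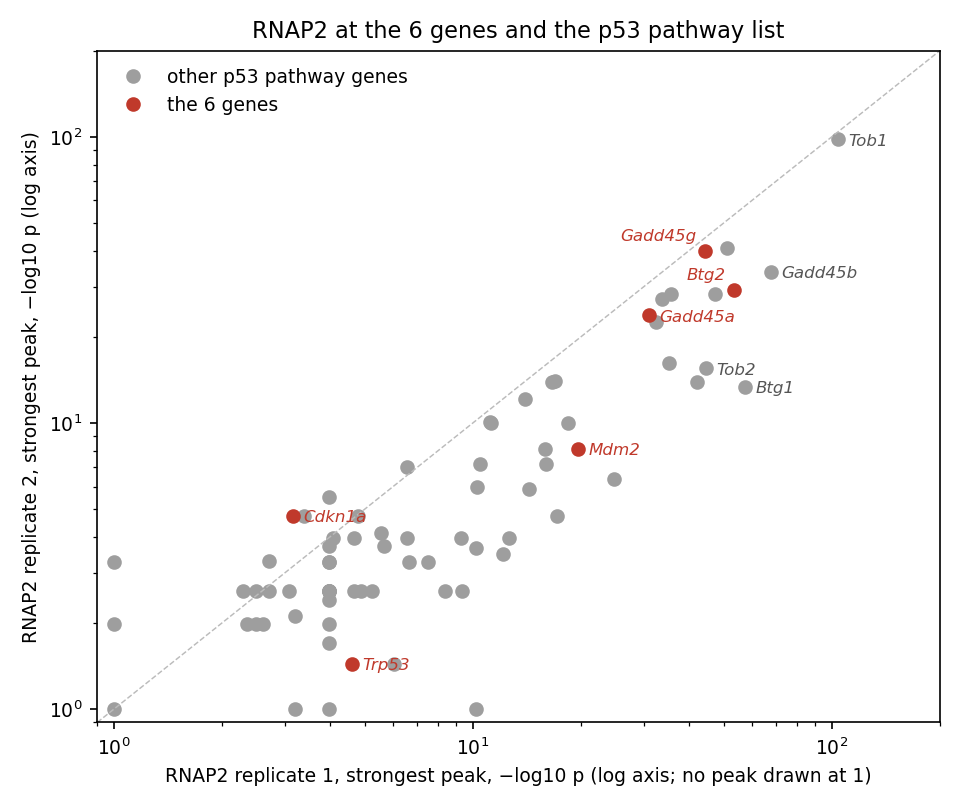
Strongest RNAP2 −log10 p in the window of each gene in replicate 1 (horizontal) and replicate 2 (vertical), both on logarithmic axes with the line of equality dashed and genes without a peak drawn at 1, for the 6 genes (red) and 70 further p53 pathway genes (grey). *Gadd45a*, *Gadd45g* and *Btg2* lie in the upper right, as do *Gadd45b*, *Btg1*, *Tob1*, *Tob2* and unlabelled genes such as *Bbc3* (47.5 and 28.3) and *Trp53inp1* (35.7 and 28.3), and *Trp53* and *Cdkn1a* in the lower left.

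REV-ERBα regions in both replicates lay in the windows of 6 of the 70 genes (8.57%, against 4.44% of all genes). The strongest were at *Ccng2*, a cyclin induced on growth arrest, with −log10 p of 9.12 and 9.34 at its TSS, and in intron 1 of *Tob1*, with 8.67 and 7.95. *Trp53*, at 7.31 and 6.35, came next to these. *Phlda3*, a p53-induced inhibitor of AKT, had 4.78 and 2.72, and *Ep300*, a p53 coactivator, had 3.32 and 3.47, both close to the TSS. At *Bax* the summit lay nearer to *Ftl1*, and at *Tigar* the regions had −log10 p of 2.02 to 2.41. BMAL1 regions in both replicates lay in the windows of 5 of the 70 genes (7.14%, against 6.81%), namely *Cdkn2d*, *Rb1*, *Bcl2*, *Tigar* and *Atr*, with −log10 p of 3.54 or lower in every list. Shared sites of the clock proteins lay at 3 of the 70 (4.29%, against 1.62%), *Tob1*, *Bax* and *Tigar*. The site was nearest to its own gene at *Tob1* only, since *Ftl1* lay nearer at *Bax* and *Fgf23* at *Tigar*.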

How the data were processed

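ChIP-seq of BMAL1, REV-ERBα and RNAP2 in gastrocnemius muscle was analysed from 6 deposited peak lists, 2 replicates per protein. The authors mapped the reads to mm10 with BWA 7.12 (as the submitters' processing notes also state), dropped reads that were duplicated or mapped to several places, thinned the replicates of a protein to similar depth and called peaks in each sample against input DNA with MACS2 2.1.1, keeping peaks with a p-value below 0.05. The deposited fold enrichment is the ratio of the summit signal to the input background as the authors' MACS2 run gave it, and the deposited −log10 p-value and −log10 q-value belong to the same summit. The integer score column was not used. The depth behind a single peak is unknown, so no counting interval was given, and the input has no list and was not analysed here.

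Peaks were read with Python 3.11.15, and figures were drawn with matplotlib 3.10.9. Positions are 1-based mm10 coordinates, and all last peak ends fitted the GRCm38.p6 chromosome lengths. Genes and TSSs came from GENCODE M21. Peaks of both lists that overlapped by at least 1 bp were merged into a region, whose strength was the lower of its replicates' −log10 p. Where a list had several peaks in a window, the strongest was used. Sequences came from GRCm38.p6, and motif shares from it and from RefSeq promoters of GRCm38.p6. Motifs were sought on both strands, and a match counted once wherever it lay. The glucocorticoid response element, the extended monomer element of REV-ERBα and the p53 half-site were sought as exact matches to their consensus.

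The 6 genes, the 70 pathway genes and the cell type markers were chosen with earlier results of these data known. The markers of 1 cell type are not reported here. All 6 genes were named with every peak, and further genes by fixed lists or, for *Trp53* and *Cdkn1a*, as the 3 protein-coding genes with the smallest Euclidean distance of log2(1 + −log10 p) over the 6 lists, leaving out genes whose windows overlap. The study calls the replicates biological, the labels give only their numbers, and with 2 per protein no test was run. Region and gene calls were tested on simulated peaks with known answers. Alternatives were a stricter p or q, 50% overlap, windows of 5 or 20 kb or without the gene body, equal list lengths (the 28881 strongest peaks of each list) and leaving out each replicate.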

Additional observations from a re-analysis of the deposited data

How the results depend on the processing

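Of 47 recomputed counts, 35 stayed within 1.5 times the count reported and 12 moved. The gene counts for RNAP2 stayed between 4 and 6, and that for shared sites of the clock proteins stayed at 0, under every alternative listed. *Trp53* gained an RNAP2 region when the window was 20 kb, and *Cdkn1a* lost its own under −log10 q of at least 1.3, 50% overlap and equal list lengths. The single BMAL1 region, at *Gadd45a*, was absent (0 genes) under −log10 p of at least 3, −log10 q of at least 1.3, 50% overlap and equal list lengths. The REV-ERBα region of *Trp53* stayed under all of these. Taking 1 replicate alone gave 2 to 6 genes for BMAL1 and 2 to 3 for REV-ERBα in place of 1, since a single list then made the call: without BMAL1 replicate 1 there were 6, without BMAL1 replicate 2 there were 2, without REV-ERBα replicate 1 there were 3 and without REV-ERBα replicate 2 there were 2. For the 70 pathway genes, the 6 with a REV-ERBα region became 3 under −log10 p of at least 3 (2.46% of all genes), 2 under −log10 q of at least 1.3 (1.37%) and 28 to 31 from 1 replicate alone (38.7% and 40.1%). No paired analysis was possible because no result came from a test. Depth at single peaks is unknown, and many weak peaks share 1 value, so their order is not resolved.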
